A study of Mus musculus with 7 samples.

Results

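The genes described here are a fixed list of 36 names of p53 target genes, which includes Trp53 itself, the gene of the p53 protein. A row was taken where its gene name equalled a name of the list, which placed 35 of the 36 among 22738 gene rows, and 33 of these had enough counts to be tested. Tigar had no row under that name. RNA sequencing counts came from explants of the epicardium, the outer cell layer of the heart, in mouse embryos of stage E12.5. Ventricles were laid on gelatin for 48 hours, the hearts were taken away, and the cells that had grown out were cultured for 72 hours more. The 4 wild type and 3 Lmnb1-/- libraries shared a mixed background of C57BL/6, 129S4Sv/Jae and 129S6/SvEvTac, and the labels give no treatment. Lmnb1 encodes lamin B1 of the nuclear lamina. The labels name no promoter, Cre or clone and do not say how many embryos went into a library.

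The p53 protein is a transcription factor held at a low level by Mdm2, a ubiquitin ligase that is also one of its targets, so that p53 limits its own activity. After DNA damage or other stress p53 is stabilised and raises genes that stop the cell cycle, such as Cdkn1a, which encodes the CDK inhibitor p21, and genes that promote apoptosis, such as Bax, Bbc3 and Pmaip1. Other targets serve DNA repair, nutrient signalling and autophagy. The members were therefore divided by role into p53 and its feedback regulators (6), arrest and growth genes (6), apoptosis genes (12), repair genes (5), metabolism and autophagy genes (5) and genes of a secreted or surface protein (2).

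The DNA that p53 recognises is built of decamers known as p53 half-sites, usually in pairs. RefSeq promoter windows of GRCm38.p6, each 300 bases with 250 before and 50 after an annotated start, were found for 28 members. Windows on the chromosome of Lmnb1, where Pmaip1 also lies, were left out of the search and of all counts here. A perfect half-site lay in the window of 12 of these 28, or 42.9%, against 9.55% of the 27025 genes with a searched window. The pattern reads the same on both strands, so one search covered both. Half-sites with at most 13 bases between them were held by 1 member, Cdkn1a, and by 0.074% of all genes. The 250 bases before the start are printed 5′ to 3′ for 5 members that stand for feedback, arrest and apoptosis in the results, with half-sites in capitals. A match describes these letters and does not show binding.
Mdm2, chr10:117710759-117711008, minus strand: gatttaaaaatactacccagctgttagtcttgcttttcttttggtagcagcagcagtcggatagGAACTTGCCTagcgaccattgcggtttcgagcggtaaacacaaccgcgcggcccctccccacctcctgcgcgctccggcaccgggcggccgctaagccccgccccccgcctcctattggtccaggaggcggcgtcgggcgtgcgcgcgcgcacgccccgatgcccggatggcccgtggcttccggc
Rps27l, chr9:66946163-66946412, plus strand: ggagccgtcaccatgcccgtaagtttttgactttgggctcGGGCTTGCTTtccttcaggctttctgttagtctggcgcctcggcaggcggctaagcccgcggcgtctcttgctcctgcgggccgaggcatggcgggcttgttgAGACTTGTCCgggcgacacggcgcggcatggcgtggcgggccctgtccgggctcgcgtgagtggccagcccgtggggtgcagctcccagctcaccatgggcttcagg
Ccng1, chr11:40755287-40755536, minus strand: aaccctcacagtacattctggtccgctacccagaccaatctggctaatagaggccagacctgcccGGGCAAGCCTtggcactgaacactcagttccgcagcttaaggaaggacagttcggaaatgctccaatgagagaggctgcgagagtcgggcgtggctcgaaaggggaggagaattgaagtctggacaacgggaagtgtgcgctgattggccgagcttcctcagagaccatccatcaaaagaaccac
Ei24, chr9:36797335-36797584, minus strand: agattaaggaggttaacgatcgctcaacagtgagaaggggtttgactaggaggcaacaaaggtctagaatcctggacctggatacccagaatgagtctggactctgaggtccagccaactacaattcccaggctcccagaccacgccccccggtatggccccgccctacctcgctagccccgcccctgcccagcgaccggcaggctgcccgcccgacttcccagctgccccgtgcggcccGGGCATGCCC
Cdkn1a, chr17:29090729-29090978, plus strand: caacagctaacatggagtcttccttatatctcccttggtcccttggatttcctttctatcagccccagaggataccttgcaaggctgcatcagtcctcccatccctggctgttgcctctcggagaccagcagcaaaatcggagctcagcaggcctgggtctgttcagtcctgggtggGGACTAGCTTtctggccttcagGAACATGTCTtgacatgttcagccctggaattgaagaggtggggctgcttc
In Cdkn1a the half-sites are 12 bases apart, in Rps27l 93, and in Ei24 the single half-site ends at the base before the start. The window of Rps27l belongs to an annotated start inside the gene.

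Levels are given in CPM, the count relative to the library total after TMM scaling, a correction for differences in RNA composition. Library totals ran from 1024898 to 3066936 counts, so that 3 counts stood for 0.965 to 3.10 CPM. Lmnb1 was at 191, 184, 201 and 239 CPM in wild type libraries 2, 3, 1 and 4, and at 1.29, 1.12 and 2.06 CPM in Lmnb1-/- libraries 1 to 3. Sex was read from the counts, as female where the Xist count exceeded the summed counts of Y-linked genes. By this rule both female libraries, wild type 1 and 3, were wild type, and the other 5 were male. All 12 epicardial markers were detected well enough to be tested, with summed levels of 2670 to 3420 CPM in wild type and 2160 to 2660 CPM in Lmnb1-/- explants. By log2 fold change, Lmnb1-/- over wild type, 3 of these lay above 0 and 9 below, and none was called at an edgeR adjusted p under 0.05. Summed macrophage markers ran from 76.5 to 344 CPM in wild type and from 41.5 to 643 CPM in Lmnb1-/- explants, and summed smooth muscle markers from 10900 to 12100 and from 8090 to 8840 CPM. All 8 smooth muscle markers lay below 0. Of these 5 were called lower, Acta2, Actg2, Cspg4, Des and Pdgfrb, where 0.705% of all tested genes were called in either direction. The 10 cardiomyocyte markers summed to 403 to 787 CPM in wild type and 449 to 592 CPM in Lmnb1-/- explants. Of these, Myl7, Tnnt2 and Actc1 could be tested, with wild type means of 411.8, 119.6 and 38.91 CPM. Their Lmnb1-/- means were 384.8, 119.2 and 30.41 CPM, and none was called by edgeR. Myh7 was at 0 counts in all libraries, and Tnni3, Myh6, Myl3 and Nppa did not exceed 3 counts. In such bulk RNA, fewer cells of a type and less RNA per cell cannot be told apart.

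No p53 target passed the test over all genes, and most had a log2 fold change, Lmnb1-/- over wild type, slightly above 0. Of the 33 tested members 26 had a log2 fold change above 0, against 47.6% of all tested genes, and their median was 0.19 against -0.02 for all 10775 tested genes. At a Benjamini-Hochberg adjusted p under 0.05 in edgeR's quasi-likelihood test 0 of 33 members were called, where the background was 0.705%, or 76 genes. DESeq2 called 2 members and limma voom 0. At an unadjusted p under 0.05, 10 members were higher, or 30.3%, against a background of 6.2%, and 1 was lower, Mdm4, or 3.03% against 7.43%. In 10 members all 3 Lmnb1-/- libraries lay above all 4 wild type libraries, against 6.36% of tested genes, and in Mdm4 all 3 lay below, against 6.92%. These shares describe a list that was chosen with earlier results of these libraries known, and they carry no test of their own.

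**Figure D1:**
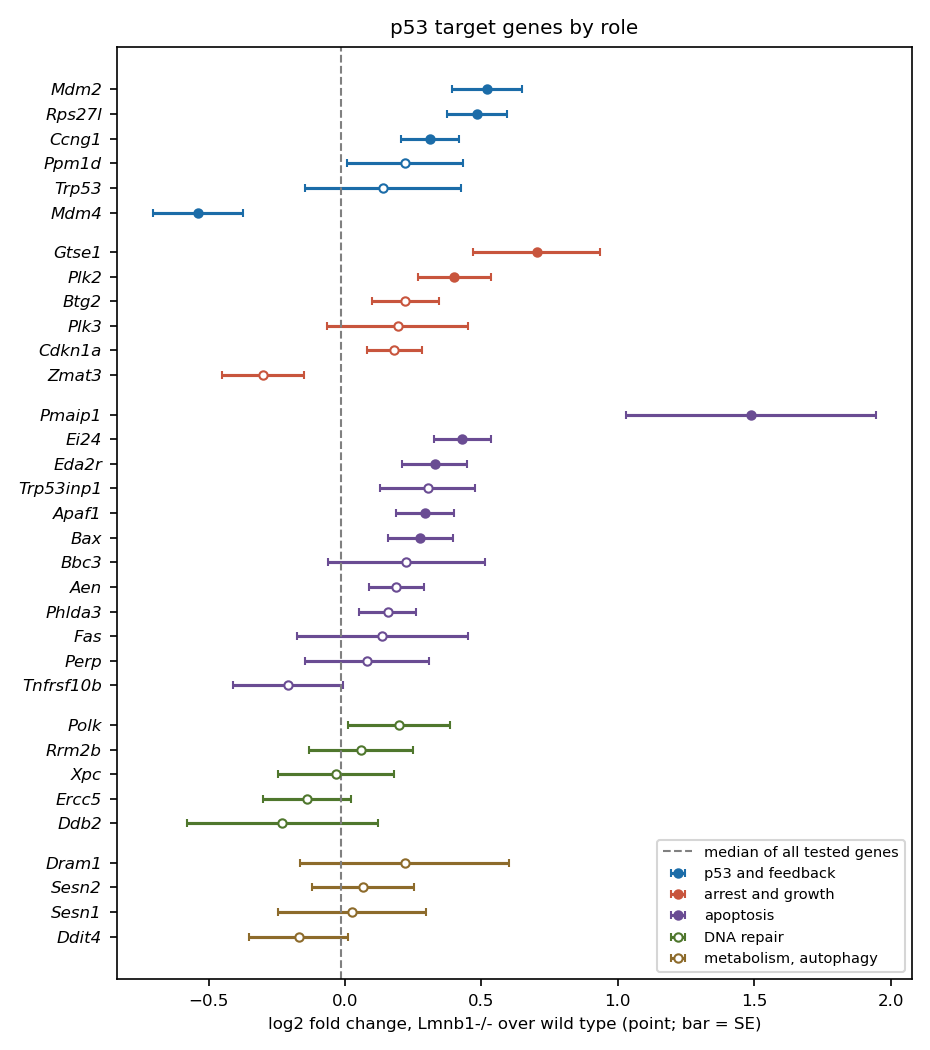
Log2 fold changes of the 33 tested p53 target genes, Lmnb1-/- over wild type, grouped by role, with bars of 1 standard error. Filled points have an unadjusted p under 0.05 and open points do not; none passed after adjustment, and the dashed line is the median of all tested genes, -0.02.

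By role, medians of the log2 fold change were 0.27 for p53 and feedback genes, 0.21 for arrest genes and 0.25 for apoptosis genes. They were -0.03 for repair genes and 0.05 for metabolism genes. Of the 10 higher members at an unadjusted p under 0.05, 3 belonged to feedback, 2 to arrest and 5 to apoptosis, and none to repair or metabolism. Differences between roles were not tested. As a measure per library, the median of the members' log2 CPM, each centred on its mean, was -0.18, 0.02, -0.14 and -0.07 in wild type libraries 1 to 4 and 0.17, 0.13 and 0.10 in Lmnb1-/- libraries 1 to 3. The wild type library nearest to the Lmnb1-/- libraries was the male library 2, which is also the shallowest, and the farthest was the female library 1. For apoptosis genes alone the same measure was -0.25, -0.06, -0.17 and -0.03 against 0.15, 0.18 and 0.14, so the groups did not overlap. Those of feedback genes did overlap, at -0.04, 0.14, -0.18 and -0.23 against 0.28, -0.01 and 0.13. For arrest genes they were 0.04, 0.06, -0.22 and -0.11 against 0.13, 0.11 and 0.16, with no overlap.

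**Figure D2:**
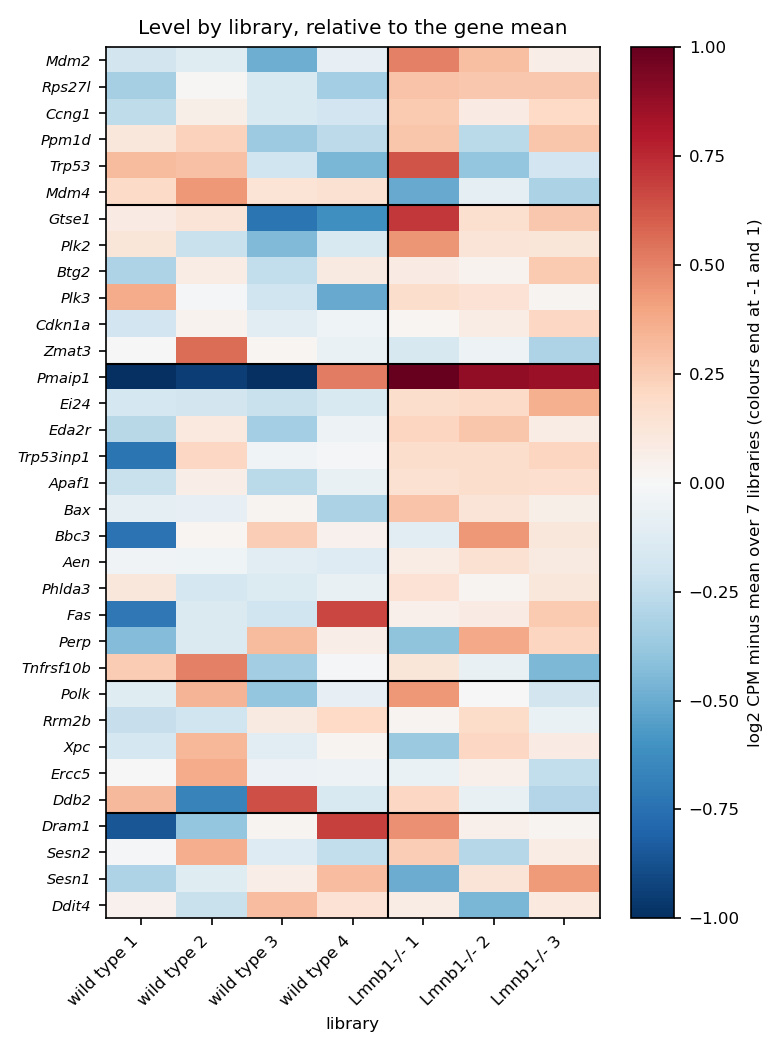
Level of each tested p53 target gene in each library as log2 CPM minus the gene's mean over the 7 libraries, red above and blue below, with lines between roles and between groups. In the 3 Lmnb1-/- columns 32 of 36 values of apoptosis genes, 15 of 18 of arrest genes and 12 of 18 of feedback genes are above 0, Mdm4 is blue there, and Pmaip1 is red in wild type library 4 as well.

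Trp53 itself was low in counts and spread alike in both groups. Its level was 25.2, 24.8, 17.3 and 14.3 CPM in wild type libraries 1 to 4 and 31.5, 15.1 and 17.5 CPM in Lmnb1-/- libraries 1 to 3. The ranges overlapped widely, and the log2 fold change was 0.14 with a 95% interval of -0.48 to 0.76, which does not exclude a rise or a fall of moderate size. Reads counted here measure mRNA, and p53 is set largely at the level of protein stability.

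Mdm2 was higher in every Lmnb1-/- library than in any wild type library. It was at 213, 223, 173 and 229 CPM in wild type and 344, 298 and 254 CPM in Lmnb1-/- explants, a 1.43-fold difference (log2 fold change 0.52, SE 0.13, edgeR adjusted p = 0.0887). Mdm4, a relative of Mdm2 that inhibits p53 by binding it, lay the other way. Its level was 39.1, 46.5, 37.7 and 38.0 CPM in wild type and 23.8, 32.0 and 27.2 CPM in Lmnb1-/- explants, 0.689 of the wild type level (log2 fold change -0.54, SE 0.17, edgeR adjusted p = 0.168). The ratio of Mdm2 to Mdm4 counts, which does not depend on the scaling between libraries, was 5.43, 4.80, 4.59 and 6.02 in wild type and 14.4, 9.33 and 9.34 in Lmnb1-/- libraries, with means of 5.21 ± 0.649 (SD, n = 4) and 11.0 ± 2.95 (SD, n = 3). This ratio was formed after the values of both genes were seen and was not tested.

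Rps27l, which encodes a ribosomal protein S27-like protein that binds Mdm2, had the smallest adjusted p of the list. It was at 130, 164, 146 and 129 CPM in wild type and at 199, 197 and 197 CPM in Lmnb1-/- explants (log2 fold change 0.48, SE 0.11, edgeR adjusted p = 0.0704). The 3 Lmnb1-/- libraries hardly differed from each other and lay above all wild type libraries. A near-identical relative, Rps27, had 5 to 14 counts in the first count column and 208 to 629 in the second, which was read as reads matching several places. The second column held 27.6% of the counts of Rps27l, and with both columns summed its log2 fold change was 0.46 (adjusted p = 0.0724).

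Cyclin G1, encoded by Ccng1, brings a phosphatase to Mdm2 and was the most abundant member. It was at 1460, 1810, 1570 and 1530 CPM in wild type and 2090, 1840 and 2000 CPM in Lmnb1-/- explants (log2 fold change 0.31, SE 0.11, edgeR adjusted p = 0.221). Wild type library 2 came close to Lmnb1-/- library 2, and the ranges did not overlap. Ppm1d, a phosphatase gene that turns p53 signalling off, overlapped at 18.8 to 28.9 and 20.2 to 29.9 CPM, with a log2 fold change of 0.22.

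Cdkn1a, the classical arrest target, differed little between the groups. It was at 245, 287, 261 and 272 CPM in wild type and 285, 296 and 324 CPM in Lmnb1-/- explants, 1.13-fold higher (log2 fold change 0.18, SE 0.10, edgeR adjusted p = 0.457). The 95% interval of the log2 fold change was -0.03 to 0.40. Wild type library 2 exceeded Lmnb1-/- library 1. An annotated gene on the opposite strand shares some exon bases of Cdkn1a, where reads of the strands cannot be told apart. Plk2, a polo-like kinase gene that p53 raises, was at 965, 759, 653 and 798 CPM in wild type and 1210, 973 and 966 CPM in Lmnb1-/- explants (log2 fold change 0.40, SE 0.13, edgeR adjusted p = 0.213). Wild type library 1, at 965 CPM, almost reached the lowest Lmnb1-/- library.

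Gtse1 encodes a microtubule-associated protein that restrains p53 and is expressed in late cell cycle phases. It was grouped with arrest genes, but by this description it could also stand with feedback or cell cycle genes. Among arrest genes Gtse1 had the largest log2 fold change, 0.70 (SE 0.23, edgeR adjusted p = 0.214). With Plk2, it made up the 2 arrest genes that were higher at an unadjusted p under 0.05 in edgeR. Its level was 40.9, 42.4, 23.0 and 24.9 CPM in wild type and 63.7, 43.2 and 46.8 CPM in Lmnb1-/- explants, so wild type libraries 1 and 2 lay just below the lowest Lmnb1-/- library. In Zmat3, an RNA-binding zinc finger gene, the groups overlapped at 124, 182, 125 and 117 CPM in wild type and 110, 119 and 99.2 CPM in Lmnb1-/- explants (log2 fold change -0.30, SE 0.15, edgeR adjusted p = 0.399). Without wild type library 2, which was the highest, the log2 fold change of Zmat3 was -0.15. Btg2, an antiproliferative gene, and Plk3, another polo-like kinase gene, overlapped between the groups, with log2 fold changes of 0.22 and 0.19.

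**Figure D3:**
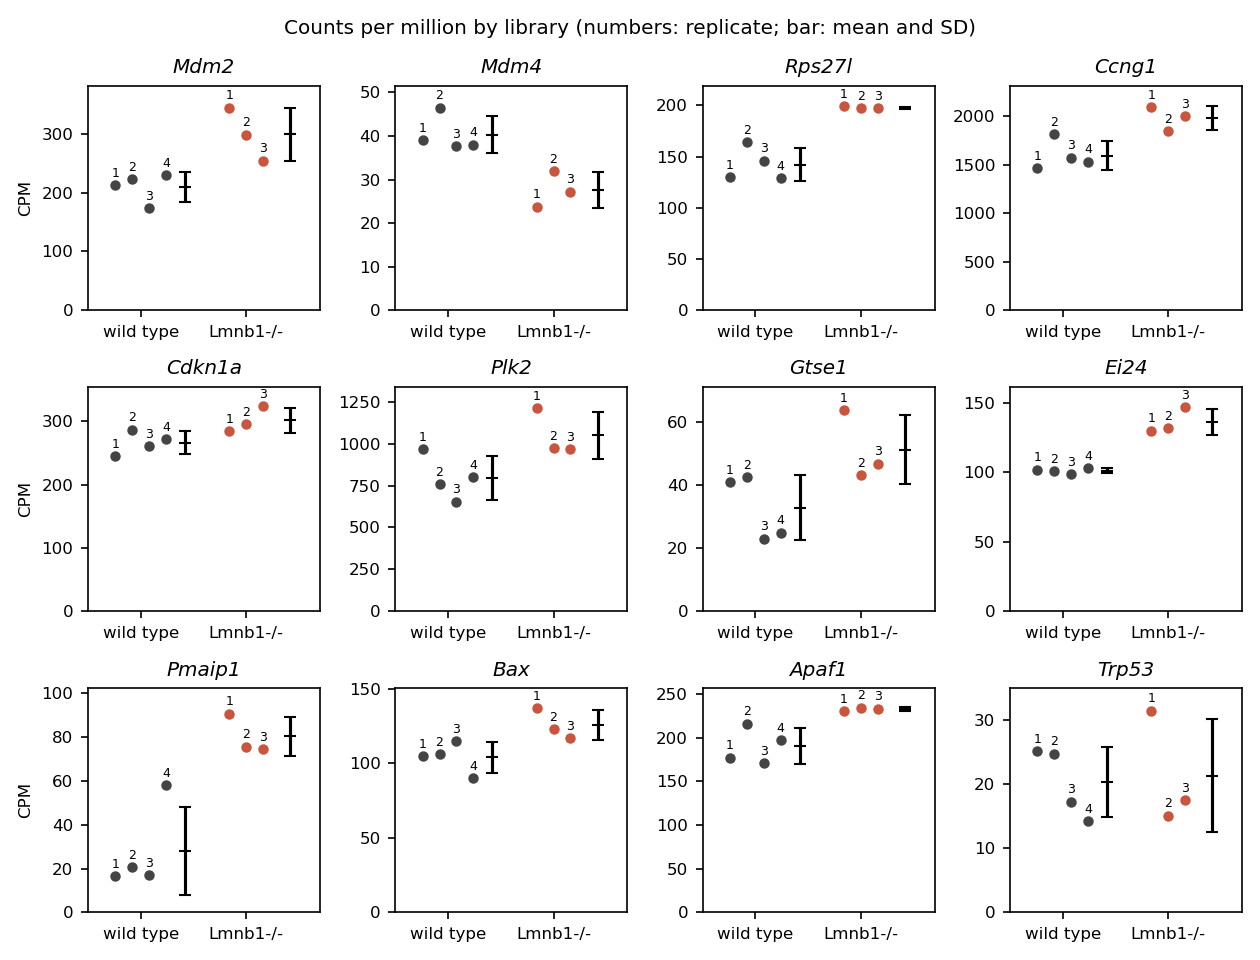
CPM of 12 p53 target genes in each library, with the replicate number beside each point and the mean with SD to the right of each group. All Lmnb1-/- points lie above all wild type points for Mdm2, Rps27l, Ccng1, Plk2, Gtse1, Ei24, Pmaip1, Bax and Apaf1, and below them for Mdm4. For Cdkn1a and Trp53 the groups overlap.

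Among apoptosis genes, Pmaip1 had the largest difference of the whole list and the widest spread. Pmaip1 encodes Noxa, a BH3-only protein that opposes Mcl1. It was at 16.5, 20.7, 16.9 and 58.2 CPM in wild type and at 90.7, 75.7 and 74.5 CPM in Lmnb1-/- explants, a 2.80-fold difference (log2 fold change 1.49, SE 0.46, edgeR adjusted p = 0.251). The Lmnb1-/- libraries all lay above wild type, and wild type library 4 lay much nearer to them than to the other 3 wild type libraries. Without that library the log2 fold change was 2.20 and the adjusted p 9.86e-05, where 0.266% of tested genes were called. Within the male libraries, wild type 2 and 4 against the 3 Lmnb1-/- libraries, it was 0.90 (adjusted p = 0.272). Wild type library 4 was the only wild type library in the group of neighbouring library numbers that held Lmnb1-/- libraries 2 and 3. With such groups as a block, Pmaip1 was not among the members higher at an unadjusted p under 0.05 in the edgeR test. Pmaip1 lies on the same chromosome as Lmnb1 in the RefSeq GRCm38 table. Of the 304 tested genes placed there 4 were called, or 1.32%, against 0.705% of all tested genes. The 4 were Lmnb1 itself, Stard4, Hbegf and the smooth muscle marker Pdgfrb.

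Ei24, a gene of an endoplasmic reticulum protein linked to apoptosis and autophagy, was the most even of the higher members. It was at 102, 101, 98.7 and 103 CPM in wild type and 130, 132 and 147 CPM in Lmnb1-/- explants (log2 fold change 0.43, SE 0.10, edgeR adjusted p = 0.0851). The gap between the groups was wider than the range within either. Its log2 fold change stayed between 0.38 and 0.48 in all 18 alternative analyses, none of which called it.

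Bax, whose protein opens the mitochondrial outer membrane, was at 105, 106, 115 and 90.2 CPM in wild type and 137, 123 and 117 CPM in Lmnb1-/- explants (log2 fold change 0.28, SE 0.12, edgeR adjusted p = 0.328). The lowest Lmnb1-/- library was barely above the highest wild type library. The ratio of Bax counts to those of its antagonist Bcl2l1 was 0.587, 0.628, 0.644 and 0.540 in wild type and 0.863, 0.764 and 0.738 in Lmnb1-/- libraries. The ratio of Bax to Bcl2 counts overlapped between the groups, at 2.75, 3.12, 3.0 and 2.12 in wild type and 4.36, 4.07 and 2.75 in Lmnb1-/- libraries. These ratios, and that of Pmaip1 to Mcl1 counts, at 0.0451, 0.0631, 0.0449 and 0.145 against 0.245, 0.182 and 0.171, were formed after the values were seen and were not tested. Eda2r, a receptor gene of the TNF receptor family, was at 214, 278, 205 and 250 CPM in wild type and 300, 314 and 273 CPM in Lmnb1-/- explants (log2 fold change 0.33, SE 0.12, edgeR adjusted p = 0.251). Here wild type library 2 exceeded Lmnb1-/- library 3.

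Of the other apoptosis genes, Apaf1 and Aen also had ranges that did not overlap. Apaf1, which forms the apoptosome, was at 171 to 216 CPM in wild type and 230 to 234 CPM in Lmnb1-/- explants, with a log2 fold change of 0.29 (edgeR adjusted p = 0.251). Aen, a nuclease gene, was at 117 to 125 and 135 to 142 CPM, with a log2 fold change of 0.19, and the second count column held 37.7% of its counts. Trp53inp1, which encodes a p53 cofactor, and Phlda3, which encodes an inhibitor of Akt, had log2 fold changes of 0.30 and 0.16 with overlapping ranges. The BH3-only gene Bbc3, the death receptor gene Fas and the membrane protein gene Perp lay at 0.22, 0.14 and 0.08. The death receptor gene Tnfrsf10b was the one apoptosis gene below 0, at -0.21. The smallest adjusted p among the last 6 of these genes was 0.479, for Trp53inp1, by the edgeR test.

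Repair genes showed no common direction. Polk, which encodes a translesion polymerase, was at 55.2, 76.5, 45.9 and 56.9 CPM in wild type and 81.7, 60.6 and 52.9 CPM in Lmnb1-/- explants (log2 fold change 0.20, edgeR adjusted p = 0.681). Ercc5, a nuclease gene of nucleotide excision repair, was at 43.1, 55.8, 41.0 and 41.3 CPM against 40.8, 44.3 and 36.0 CPM (log2 fold change -0.14, edgeR adjusted p = 0.744). Ddb2, a damage recognition gene, was at 9.13, 4.13, 11.7 and 6.33 CPM against 8.36, 6.73 and 5.65 CPM (log2 fold change -0.23, edgeR adjusted p = 0.811). All 3 overlapped between the groups. Of the exon bases of Ddb2, 26.7% are shared with Acp2 on the opposite strand, and the library kit keeps no strand, so their reads cannot be told apart there. Xpc and Rrm2b, for damage recognition and nucleotide supply, had log2 fold changes of -0.03 and 0.06.

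Metabolism and autophagy genes likewise overlapped between the groups. Ddit4, which encodes an inhibitor of mTORC1 signalling, was at 40.0, 33.1, 48.2 and 43.0 CPM in wild type and 40.8, 28.0 and 41.6 CPM in Lmnb1-/- explants (log2 fold change -0.17, edgeR adjusted p = 0.721). Dram1, a lysosomal autophagy gene, was at 3.48, 5.17, 7.15 and 11.8 CPM against 9.97, 7.29 and 7.19 CPM (log2 fold change 0.22, edgeR adjusted p = 0.840). Sesn2, a sestrin gene of nutrient sensing, was at 34.8, 45.5, 32.0 and 29.5 CPM against 41.8, 28.6 and 37.0 CPM (log2 fold change 0.07, edgeR adjusted p = 0.911), and the related Sesn1 had a log2 fold change of 0.02. A row named 9630033F20Rik, which RefSeq lists as an older name of Tigar, was at 32.0 to 43.4 CPM in wild type and 30.2 to 35.3 CPM in Lmnb1-/- explants, with a log2 fold change of -0.09. It is not counted among the members.

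Gdf15 and Cd80 had too few counts to be tested. Gdf15, a stress-induced secreted factor, had 1, 2, 10 and 13 counts in wild type libraries 1 to 4 and 9, 7 and 11 in Lmnb1-/- libraries 1 to 3. Cd80, a costimulatory surface protein of immune cells, had 0 to 3 counts in every library. Differences in these genes were not detectable at this depth.

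Levels can be compared between genes only per length of transcript. In wild type explants, CPM per kilobase of annotated exon was highest for Ccng1 (454 ± 43.5, SD, n = 4), followed by Plk2 (284 ± 46.2) and Rps27l (245 ± 29.0), whose values differed by less than their spread. Next came Phlda3 (135 ± 12.4), Bax (120 ± 12.0) and Cdkn1a (98.0 ± 6.51). Mdm2 was at 66.6 ± 8.01, far above Mdm4 at 3.71 ± 0.384, and Trp53 was at 10.9 ± 2.91. Cd80 and Gdf15 were lowest, at 0.196 and 1.59.

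The calls near the threshold turned with the analysis. Rps27l was called with library totals in place of TMM (adjusted p = 0.0428, background 0.677%), with no filter on low counts (0.0299, background 1.07%) and by DESeq2 (0.0262, background 1.62%). It was also called without wild type library 2 (0.0448, background 0.374%) and with groups of neighbouring library numbers as a block (0.0252, background 0.863%). Mdm2 was called with no filter (0.0195), by DESeq2 (0.0319) and with replicate number as a block (0.0486, background 0.715%). Plk2 was called without wild type library 1 (0.0438, background 2.63%). Within male libraries and with sex as a covariate no member was called, and the list's median was 0.11 and 0.12. Rps27l, Ei24 and Mdm2 had log2 fold changes of 0.45, 0.41 and 0.40 within male libraries (edgeR adjusted p = 0.141, 0.165 and 0.192). Summed macrophage markers were at 134.4, 76.45, 85.48 and 343.7 CPM in wild type libraries 1 to 4, where the members' median per library was -0.18, 0.02, -0.14 and -0.07. In Lmnb1-/- libraries 1 to 3 these markers were at 41.48, 277.1 and 642.8 CPM, and the members' median was 0.17, 0.13 and 0.10. The part of macrophage RNA in the result was not tested.

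**Figure D4:**
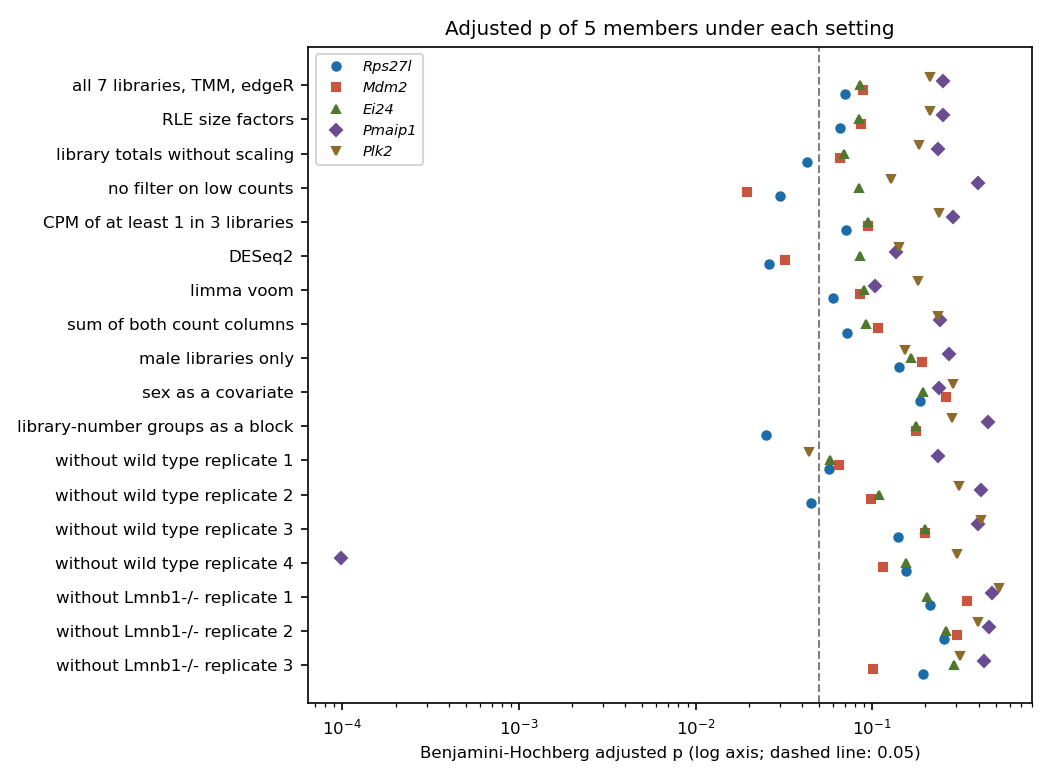
Benjamini-Hochberg adjusted p of Rps27l, Mdm2, Ei24, Pmaip1 and Plk2 in the analysis of all 7 libraries and in alternatives, on a log axis with a dashed line at 0.05. The alternative with replicate number as a block, where Mdm2 and Pmaip1 were also called, is not drawn. Ei24 stays to the right of the line throughout, and Pmaip1 crosses it without wild type library 4.

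Other genes of the pathway were compared as lists. Among 24 tested regulators of p53 none was called, 11 lay above 0 and 13 below, and the median log2 fold change was -0.01. Prmt5, a methyltransferase gene, and Rpl5, a ribosomal protein gene whose product can bind Mdm2, lay at 0.44 and 0.45 (edgeR adjusted p = 0.157 and 0.307). Rpl5 had only 38 to 111 counts in the first count column, against 1041 to 3660 in the second, and its ranges overlapped. At an unadjusted p under 0.05, 2 of the 24 regulators were higher, Prmt5 and Rpl5, and 2 were lower. Of all tested genes 6.2% were higher and 7.43% lower at that p. The lower ones, named after their values were seen, were the kinase gene Hipk2 at -0.75 and Daxx, which encodes a chaperone of histones, at -0.44 (edgeR adjusted p = 0.316 and 0.329). Among 21 tested further p53 targets none was called, with 12 above 0 and a median of 0.06. Of these Pcna, the replication clamp gene, lay at 0.71 and Ckap2, a spindle gene, at 0.58 (edgeR adjusted p = 0.0837 and 0.227). At an unadjusted p under 0.05 these 2 of the 21 were higher, against 6.2% of all tested genes. Another 2 were lower, against 7.43%, and were named after their values were seen. Sfn, a gene of a scaffold protein linked to arrest, had the largest difference of this list, -2.44 (edgeR adjusted p = 0.275). It was at 8.26, 35.1, 22.6 and 7.59 CPM in wild type and 0.643, 6.73 and 3.08 CPM in Lmnb1-/- explants, all 3 below wild type. Igfbp3, which encodes a binding protein of insulin-like growth factors, lay at -0.64 (edgeR adjusted p = 0.257) with overlapping ranges. The difference from the members' median of 0.19 was not tested.

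Genes that p53 is known to lower through p21 and the DREAM complex, a repressor of cell cycle genes, lay mostly above 0. Of 16 tested, 13 lay above 0 and none was called, with a median of 0.17. The smallest p were those of Cdc20 and Aurka, both mitotic genes, at 0.30 and 0.30 (edgeR adjusted p = 0.613 and 0.643). Their summed level was 1806, 949.5, 1101 and 1365 CPM in wild type and 1466, 1474 and 1389 CPM in Lmnb1-/- libraries, so wild type library 1 was the highest of all. In the Bcl-2 family none of 11 tested genes was called, and the median was 0.03, with Bcl2l11 at 0.65 and Bnip3l at 0.27 (edgeR adjusted p = 0.385 and 0.467). In a list of CDK inhibitors, pocket proteins and cyclins none of 13 was called, and the median was -0.11, with the cyclin genes Ccne1 and Ccne2 at 0.90 and 0.63 (edgeR adjusted p = 0.100 for both). Also at an unadjusted p under 0.05, and named after their values were seen, were the cyclin genes Ccnd1 at 0.86 and Ccnd3 at -0.56 (edgeR adjusted p = 0.160 and 0.348).

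The presence of a half-site in the promoter window was set beside these values. Of the members with an unadjusted p under 0.05, 10 had a searched window, Pmaip1 not among them. Of these 10, 6 held a half-site: Bax, Ccng1, Ei24, Gtse1, Mdm2 and Rps27l. Of the 18 other members with a window 6 held one: Aen, Cdkn1a, Polk, Ppm1d, Sesn1 and Trp53. Cdkn1a, with its close pair of half-sites, had a log2 fold change of 0.18. The relation was not tested.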

How the data were processed

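Per the submitters' processing notes, reads were aligned with TopHat to mm9 and edgeR was used. The counting program and annotation are not given in the sources used here. The authors deposited, for each of the 7 libraries, a table of raw counts with 22738 gene rows and 2 unnamed count columns. The first was used, and the second was read from its values as reads matching several places (16.6 to 19.6% of all counts). The labels do not say whether replicates came from separate embryos, so p-values measure the spread between these libraries.

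Counts were filtered with filterByExpr (10775 genes left), scaled by TMM and tested with edgeR 4.0.16 (quasi-likelihood, robust, no covariate, R 4.3.3) with Benjamini-Hochberg adjustment over all tested genes at 0.05. SE is the log2 fold change over the square root of F. The procedure was tested on simulated data. Alternatives were RLE, no scaling, 2 other filters, DESeq2 1.42.0, limma 3.58.1 voom, a replicate block, both columns summed, males only, sex as a covariate, groups of library numbers with gaps of at most 2 as a block, and leaving out each library. Trp53, Cdkn1a, Mdm2, Bax and the 3 members of smallest p in each role were given per library, and in other lists the 2 genes of smallest p. Members and lists were chosen with earlier results of these data known. Chi-square per degree of freedom between replicates ran from 2.22 to 7.71, above sampling noise. This does not show whether replicates came from separate embryos. Each library was counted as 1 sample. Exon lengths and strands came from GENCODE M21 and promoters from RefSeq GRCm38.p6, neither of which is the build of the counts, and no position was carried over.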

Additional observations from a re-analysis of the deposited data

Results flagged for a closer look

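In 4 of 35 members, 1 wild type library lay far from the other 3, where the gap to its neighbour was divided by the whole range and lay above the 95% limit of Dixon's test for 4 values. Chance flags about 1 in 20 groups. For Pmaip1 the ratio was 0.901, with library 4 high at 58.2 CPM. Library 2, the shallowest, was high in the other 3, with a ratio of 0.885 for Zmat3 (182 CPM), 0.863 for Ercc5 (55.8 CPM) and 0.832 for Mdm4 (46.5 CPM). Without library 2 the log2 fold change of Mdm4 was -0.48 and that of Zmat3 -0.15.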

How the results depend on the processing

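Of the 33 tested members 23 kept the sign of their log2 fold change in all 18 alternatives, and 4 were called in at least 1. The count of called members, 0 of 33 in edgeR's quasi-likelihood test, was 1 with library totals, 2 with no filter, 2 by DESeq2, 1 with the library-number block and 0 to 1 on leaving out a library. Correlations of deviations between libraries of the same replicate number were 0.264, -0.158 and -0.0898. Lmnb1-/- library 1 correlated best with wild type library 1, and Lmnb1-/- libraries 2 and 3 with wild type library 4. These sets also shared groups of neighbouring library numbers, and the group of wild type libraries 2 and 3 held no Lmnb1-/- library. The fit of all 7 libraries had no term for these groups. With them as a block the list's median was 0.21. With the replicate block 77 genes and 2 members, Mdm2 (adjusted p = 0.0486) and Pmaip1 (0.000199), were called. The count over all genes, 76, was 180 with no filter, 175 by DESeq2, 44 with both columns summed, 38 with sex as a covariate and 3 to 279 on leaving out a library, with the lowest without Lmnb1-/- replicate 2 and the highest without wild type replicate 1. The list's median, 0.19, was 0.11 within males and 0.12 with sex as a covariate, and that of apoptosis genes, 0.25, was 0.17 in both. The 10 members higher at an unadjusted p under 0.05 (30.3%, background 6.2%) were 7 within males (20.6%, background 7.63%). With sex as a covariate they were also 7 (21.2%, background 6.54%). On leaving out a library they were 6 to 13. The lowest count was without Lmnb1-/- replicate 1 (17.6%, background 4.98%), and the highest without wild type replicate 2 (39.4%, background 5.87%).

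The 10 members whose sign turned had log2 fold changes from -0.23 (Ddb2) to 0.22 (Dram1) in all 7 libraries. Within males and with sex as a covariate log2 fold changes were -0.28 and -0.27 for Fas, 0.34 and 0.34 for Ddb2, -0.0076 and -0.0055 for Rrm2b, -0.12 and -0.12 for Sesn1, and -0.16 and -0.16 for Dram1. With the library-number block they were -0.0096 for Fas and -0.0931 for Sesn1, with the replicate block -0.045 for Trp53 and -0.0132 for Sesn2, with library totals 0.0137 for Xpc, and by voom -0.07 for Sesn1. On leaving out each library they ran from -0.29 to 0.32 for Trp53, -0.0789 to 0.31 for Perp, -0.0693 to 0.53 for Fas, -0.0157 to 0.33 for Polk, -0.15 to 0.15 for Xpc, -0.42 to 0.0278 for Ddb2, -0.0209 to 0.16 for Rrm2b, -0.21 to 0.28 for Sesn1, -0.073 to 0.19 for Sesn2 and -0.0281 to 0.64 for Dram1. The cause was not tested. Depth limits Gdf15, Cd80, Ddb2 and Dram1, where 3 counts were up to 3.10 CPM.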
